A study of Mus musculus with 2 samples.

Results

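The accessible chromatin around 10 AP-1 and immediate early genes was examined in control and Ngn3-OE late retinal progenitor cells (RPCs). The genes were Fos, Fosb, Fosl1, Fosl2, Jun, Junb, Jund, Atf3, Egr1 and Ier2. A peak was assigned to a gene when its summit lay within the gene body or within 50 kb on either side of it. By this rule 167 of the 117165 peaks of the control library and 200 of the 124935 peaks of the Ngn3-OE library were members, and 0 peaks fell into the windows of more than 1 gene. Both groups were mouse retinas electroporated in vivo on postnatal day 1, with a control plasmid or with a plasmid that overexpresses Ngn3, a bHLH transcription factor. The labels and methods name no strain, and neither the promoter that drove Ngn3 nor the number of pooled retinas was stated. GFP-positive cells were sorted by FACS at day 2 after electroporation, so both libraries hold only cells that took up plasmid and survived injection, pulsing and dissociation. Accessibility was measured by ATAC-seq, in which the Tn5 transposase cuts open DNA and the sequenced ends pile up at accessible sites. Each group had 1 library, so there is no replicate spread, no test between conditions was possible, and every interval below covers counting error only.

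Immediate early genes are switched on within minutes of a stimulus without the need for new protein. Fos and Jun proteins, together with relatives such as Atf3, pair through leucine zippers to form AP-1, a transcription factor that binds the sites TGACTCA and TGAGTCA. Egr1 is a zinc finger factor and Ier2 a small nuclear protein of the same early response. Their promoters are classically reached through the serum response factor, which binds the CArG box (CC and GG around a stretch of A and T), and through CREB and ATF proteins, which bind the cyclic AMP response element (CRE) TGACGTCA. In the retina these genes respond to light, injury and growth factors.

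The value given for each peak is the number of tags stacked at its summit, recovered from the deposited fold enrichment and p-value. It is a height at 1 position and can be compared between genes without a length correction. The total number of reads was not given in the lists, but the lowest background that the peak caller used was 0.261 tags in control and 0.257 in Ngn3-OE. Peaks in both lists had a median of 9 tags. Distances are from the nearest start site of the gene, with negative values upstream. A promoter peak has its summit within 1 kb of a start site. All 8 progenitor markers had a promoter peak in both libraries, as did all 4 markers of the photoreceptor lineage. Of 5 markers of microglia and other blood cells, which switch on immediate early genes when activated, 0 had a promoter peak in either library. Endothelial markers had a promoter peak at 2 of 4 genes in control, with 4 and 43 tags, and at 1 of 4 in Ngn3-OE, with 28 tags. Of the 2 muscle markers, 1 had a promoter peak, with 4 tags in control and 9 in Ngn3-OE.

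The CArG boxes of the Fos, Fosb and Junb loci lay under strong peaks of both libraries and are shown first, because the share of member peaks with this motif stood furthest above that of the whole list in the comparison given later. Sequences are from the RefSeq assembly GRCm38.p6, which is the mm10 build of the files, and are written 5′ to 3′ on the strand of the gene. Capitals mark the motif. The Fos upstream peak lies outside exons just before the start site, the Fos downstream peak in intergenic DNA 12.1 kb past the start, the Fosb peak outside exons upstream of the start, and the Junb peak inside the annotated gene but past the end of its basic transcript.
Fos upstream peak (chr12:85473469-85473623, plus strand): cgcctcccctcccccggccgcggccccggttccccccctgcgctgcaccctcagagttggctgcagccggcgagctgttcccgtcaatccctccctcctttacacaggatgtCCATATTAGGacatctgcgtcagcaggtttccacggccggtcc
Fos downstream peak, part (chr12:85486038-85486197, plus strand): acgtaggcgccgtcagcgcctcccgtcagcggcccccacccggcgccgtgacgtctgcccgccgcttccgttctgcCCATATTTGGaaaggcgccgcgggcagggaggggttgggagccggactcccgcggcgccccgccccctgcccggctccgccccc
Fosb upstream peak (chr7:19310288-19310507, minus strand): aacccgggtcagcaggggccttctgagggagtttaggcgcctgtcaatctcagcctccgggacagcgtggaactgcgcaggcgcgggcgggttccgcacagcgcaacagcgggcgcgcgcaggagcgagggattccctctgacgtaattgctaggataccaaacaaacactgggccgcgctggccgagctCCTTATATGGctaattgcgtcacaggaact
Junb downstream peak (chr8:84976526-84976769, minus strand): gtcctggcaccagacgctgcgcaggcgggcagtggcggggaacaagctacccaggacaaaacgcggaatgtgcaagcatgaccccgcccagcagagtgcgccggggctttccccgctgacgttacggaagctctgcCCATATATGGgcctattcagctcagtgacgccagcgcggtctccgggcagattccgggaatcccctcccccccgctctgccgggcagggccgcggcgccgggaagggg

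The CRE of the Ier2 promoter and the AP-1 site at the tallest control peak that held one (47 tags) are shown next, again with the motif in capitals. The Ier2 stretch is the part of the promoter peak outside the annotated transcript. The AP-1 site lies at a peak in an intron of D830036C21Rik, upstream of Fosb.
Ier2 promoter peak, part (chr8:84662853-84662956, minus strand): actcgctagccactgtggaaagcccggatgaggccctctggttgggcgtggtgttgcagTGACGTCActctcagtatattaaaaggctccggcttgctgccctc
Fosb-window AP-1 peak (chr7:19327231-19327463, minus strand): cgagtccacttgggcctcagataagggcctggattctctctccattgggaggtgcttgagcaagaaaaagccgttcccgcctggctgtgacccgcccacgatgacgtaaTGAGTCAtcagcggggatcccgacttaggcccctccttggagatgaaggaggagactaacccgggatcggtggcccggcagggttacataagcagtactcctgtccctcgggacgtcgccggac

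The remaining sequences are 4 of the shared peaks that differed by 2-fold or more, the largest differences in the lower direction and, in the higher direction, the peak in a member's own intron and the peak with an E-box. The first is intergenic, downstream of Ier2, and was lower in Ngn3-OE; it is shown with no motif marked because 0 of the 5 motifs searched were found at its summit. The second lies in an intron of Nfix, upstream of Ier2, was lower in Ngn3-OE and holds a SOX site in capitals. The third lies in an intron of Atf3 and was higher in Ngn3-OE, with no motif marked. The fourth lies in an intron of Cacna1a, downstream of Ier2, was higher in Ngn3-OE and holds the E-box of the study's NGN3 motif in capitals.
Ier2 downstream peak (chr8:84655668-84655913, minus strand): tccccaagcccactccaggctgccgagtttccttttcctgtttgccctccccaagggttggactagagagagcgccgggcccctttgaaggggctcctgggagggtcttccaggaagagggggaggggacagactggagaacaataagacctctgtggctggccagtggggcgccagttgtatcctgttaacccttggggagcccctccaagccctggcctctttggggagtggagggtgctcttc
Nfix intron peak (chr8:84712456-84712723, minus strand): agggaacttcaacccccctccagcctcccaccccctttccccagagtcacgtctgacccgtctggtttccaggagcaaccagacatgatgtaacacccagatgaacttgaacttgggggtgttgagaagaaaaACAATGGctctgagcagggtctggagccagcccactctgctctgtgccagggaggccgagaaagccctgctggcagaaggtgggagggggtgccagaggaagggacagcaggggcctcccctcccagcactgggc
Atf3 intron peak (chr1:191172631-191172739, minus strand): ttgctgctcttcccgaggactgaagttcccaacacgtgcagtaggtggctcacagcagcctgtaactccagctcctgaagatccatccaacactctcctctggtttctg
Cacna1a intron peak, part (chr8:84617168-84617327, minus strand): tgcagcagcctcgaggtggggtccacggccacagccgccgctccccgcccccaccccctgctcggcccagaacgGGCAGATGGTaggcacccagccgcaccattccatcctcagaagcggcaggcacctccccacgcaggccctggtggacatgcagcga

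All 10 genes had a promoter peak in both libraries, and the height of the strongest promoter peak differed between the libraries beyond counting error at none of them. The promoter of Jun, which encodes the main partner of Fos proteins, carried 140 tags in control and 155 in Ngn3-OE. By tags it was the highest of the 10 in both. By fold enrichment over local background it was not, with 14.8 in control and 16.3 in Ngn3-OE. Atf3 had 21.4 and 23.0, and Fosb 16.0 and 16.4. Egr1 had 88 and 82 tags, at summits more than 100 bp apart, Jund 74 and 78, Junb 70 and 60, Fos 68 and 63, Ier2 67 and 80, Atf3 57 and 62, and Fosb 55 and 50 tags in control and Ngn3-OE. These promoters were far above the median peak of 9 tags, and also above the median promoter peak of 19 tags in each whole list. Fosl2 had 14 and 16 tags, and Fosl1 had 4 and 12, all below that promoter median. The largest difference was therefore at the lowest promoter, that of Fosl1, where the log2 ratio of Ngn3-OE over control was 1.58 with a counting interval of −0.14 to 3.67 and summits more than 100 bp apart. At the other 9 promoters the log2 ratio lay between −0.22 and 0.26, and the counting interval of each included 0.

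In order of height in the control library the promoters ran Jun, Egr1, Jund, Junb, Fos, Ier2, Atf3, Fosb, Fosl2 and Fosl1. Jun stood above Egr1 beyond counting error, by 0.67 on the log2 scale (0.27 to 1.07). From Egr1 down to Fosb no gene differed from the next beyond counting error. Fosb stood 1.97 above Fosl2 (1.11 to 2.94), and Fosl2 stood 1.81 above Fosl1 (0.14 to 3.87). In Ngn3-OE the order of the middle genes changed within counting error, and Fosl2 and Fosl1 no longer differed beyond it (0.42, with an interval of −0.76 to 1.63).

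**Figure D1:**
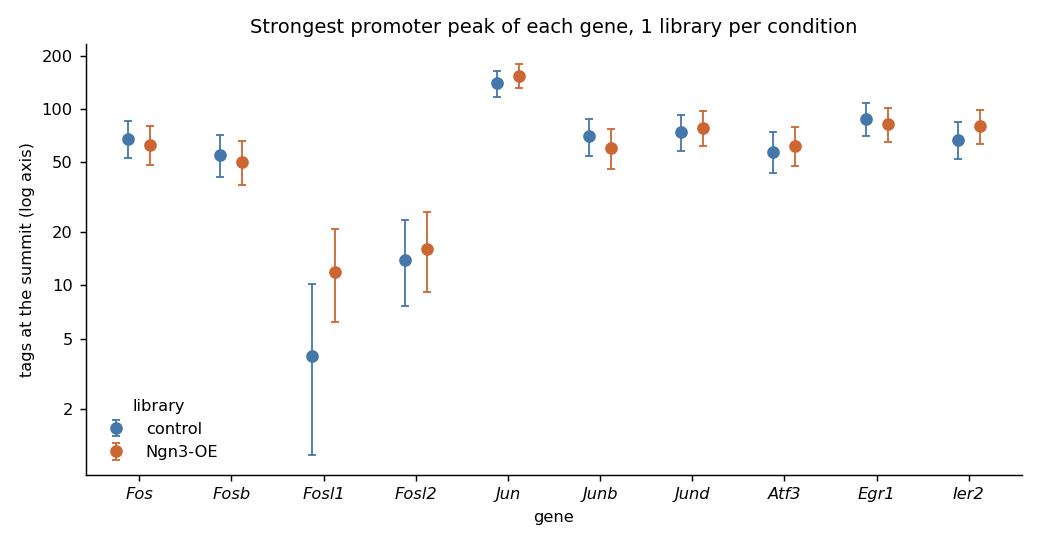
Height of the strongest promoter peak of each gene (tags at the summit, log axis) in the control and the Ngn3-OE library, with 95% counting intervals. Jun is highest at 140 and 155 tags, 7 genes lie between 50 and 88 tags, and Fosl2 and Fosl1 lie between 4 and 16 tags.

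Among the Fos family, the founding member Fos (chr12:85473890-85477273) had no other protein-coding gene in its window. It had 17 control and 19 Ngn3-OE peaks. Its highest peak was not the promoter but an intergenic site at −18.5 kb (chr12:85455039-85455638), with 103 tags in control and 115 in Ngn3-OE. The downstream peak with the CArG box had 72 and 75 tags, and a peak at −1.68 kb had 57 and 45. The promoter itself was split into peaks at −0.35 kb with 68 and 63 tags, at −0.04 kb with 47 and 33 tags, and at 0.74 kb with 14 and 11 tags. All 3 were lower in Ngn3-OE, each within counting error. The median log2 ratio over the 16 shared peaks of Fos was −0.03.

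Fosb (chr7:19302696-19310051), a close relative of Fos known for its lasting splice form in neurons, had 7 other protein-coding genes in its window. It had 25 control and 26 Ngn3-OE peaks. Its highest peak away from promoters lay at −10.0 kb, with 72 tags in control and 60 in Ngn3-OE. The upstream peak with the CArG box had 46 and 40 tags, and the peak with the AP-1 site at −17.3 kb had 47 and 37. Of its 22 shared peaks, 17 had a log2 ratio below the median of all shared peaks, and their own median was −0.18.

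Fosl1 (chr19:5447547-5455946) and Fosl2 (chr5:32135801-32157842) encode Fra-1 and Fra-2, Fos relatives without a strong activation domain. Their promoters were the least accessible of the 10. The Fosl1 window had 11 other protein-coding genes, and 11 of its 17 control peaks were at the promoters of other genes. Its peak of highest −log10 q away from promoters, at 16.4 kb in an intron of Fibp, had 24 tags in control and 15 in Ngn3-OE. A peak in an intron of Cfl1 at 44.1 kb, with an AP-1 site, was about as tall, with 25 and 17 tags. Fosl2 had no other protein-coding gene and the sparsest window, with 6 control and 8 Ngn3-OE peaks. Its highest peak away from promoters was at 69.0 kb in control and at 62.1 kb in Ngn3-OE, with 12 tags in each case. The first of these had 7 tags in Ngn3-OE and the second 4 tags in control.

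Among the Jun family, Jun (chr4:95049034-95052222) had no other protein-coding gene in its window and 12 control and 13 Ngn3-OE peaks. Besides the promoter, a peak at −1.14 kb in an intron of the divergent noncoding gene Junos had 68 tags in control and 86 in Ngn3-OE. The single exon of Jun held peaks at 1.48 kb with 26 and 40 tags and at 2.13 kb with 44 and 61 tags. All 4 were higher in Ngn3-OE, each within counting error. Of the 11 shared peaks, 9 lay above the median of all shared peaks, and their own median was 0.32.

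Junb (chr8:84974484-84978718), a Jun relative that often restrains growth, had 9 other protein-coding genes in its window and 24 control and 28 Ngn3-OE peaks. Its highest peak away from promoters was the downstream one with the CArG box at 2.07 kb, with 100 tags in control and 89 in Ngn3-OE, above its own promoter. The promoter peak of Hook2 at −11.8 kb had 89 and 95 tags. The median log2 ratio over its 23 shared peaks was −0.14. Jund (chr8:70698949-70700616), the family member with the steadiest expression in most tissues, had 5 other protein-coding genes in its window and 17 control and 23 Ngn3-OE peaks. Its promoter was split into a peak at −0.50 kb with 71 and 58 tags and a peak at −0.18 kb with 74 and 78 tags, and the second of these held a CRE. Its highest peak away from promoters, in an intron of Lsm4 at −24.0 kb, had 38 tags in control and 50 in Ngn3-OE.

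Atf3 (chr1:191170296-191218039), a stress-induced partner of Jun proteins, had 14 control and 16 Ngn3-OE peaks and 1 other protein-coding gene in its window. Its peak of highest −log10 q away from promoters lay at 62.4 kb, with 41 tags in control and 38 in Ngn3-OE. A peak at −46.6 kb had 24 and 40 tags, and was the tallest of these in Ngn3-OE. Of the 13 shared peaks, 8 lay above the median of all shared peaks, and their own median of 0.43 was the highest of the 10 genes.

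Ier2 (chr8:84661331-84662852) had 5 other protein-coding genes in its window and 19 control and 24 Ngn3-OE peaks. Its highest peak lay just upstream at −1.27 kb, with 86 tags in control and 90 in Ngn3-OE. In Ngn3-OE the summit of that peak fell within 1 kb of the start of Gm26664, so the highest Ngn3-OE peak away from promoters was another, at 23.3 kb in a coding exon of Cacna1a, with 50 tags. Its control counterpart had 47. The Ier2 window also held the sites that were lower in Ngn3-OE by the widest margin, described below with the shared peaks.

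Egr1 (chr18:34859823-34864984) has 2 annotated start sites and had 3 other protein-coding genes in its window and 16 control and 22 Ngn3-OE peaks. The promoter region held peaks of 56 and 55 tags at the upstream start and of 35 and 42 tags at −0.69 kb from the downstream start. Between these and the coding sequence, control had 1 broad peak with 88 tags at its summit at −73 bp. Ngn3-OE had separate peaks there, with 82 tags at −372 bp, 70 tags at −76 bp and 20 tags at 161 bp. CArG boxes at −100 and −78 bp lay near the control summit and the 70-tag summit, and the 82-tag summit lay near others at −402, −364 and −348 bp. The highest peak away from promoters, at −9.51 kb, had 28 tags in control and 46 in Ngn3-OE, a log2 ratio of 0.72 (0.01 to 1.45). That interval included the median of all shared peaks, 0.09. None of the 16 control peaks of Egr1 lacked an Ngn3-OE counterpart.

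**Figure D2:**
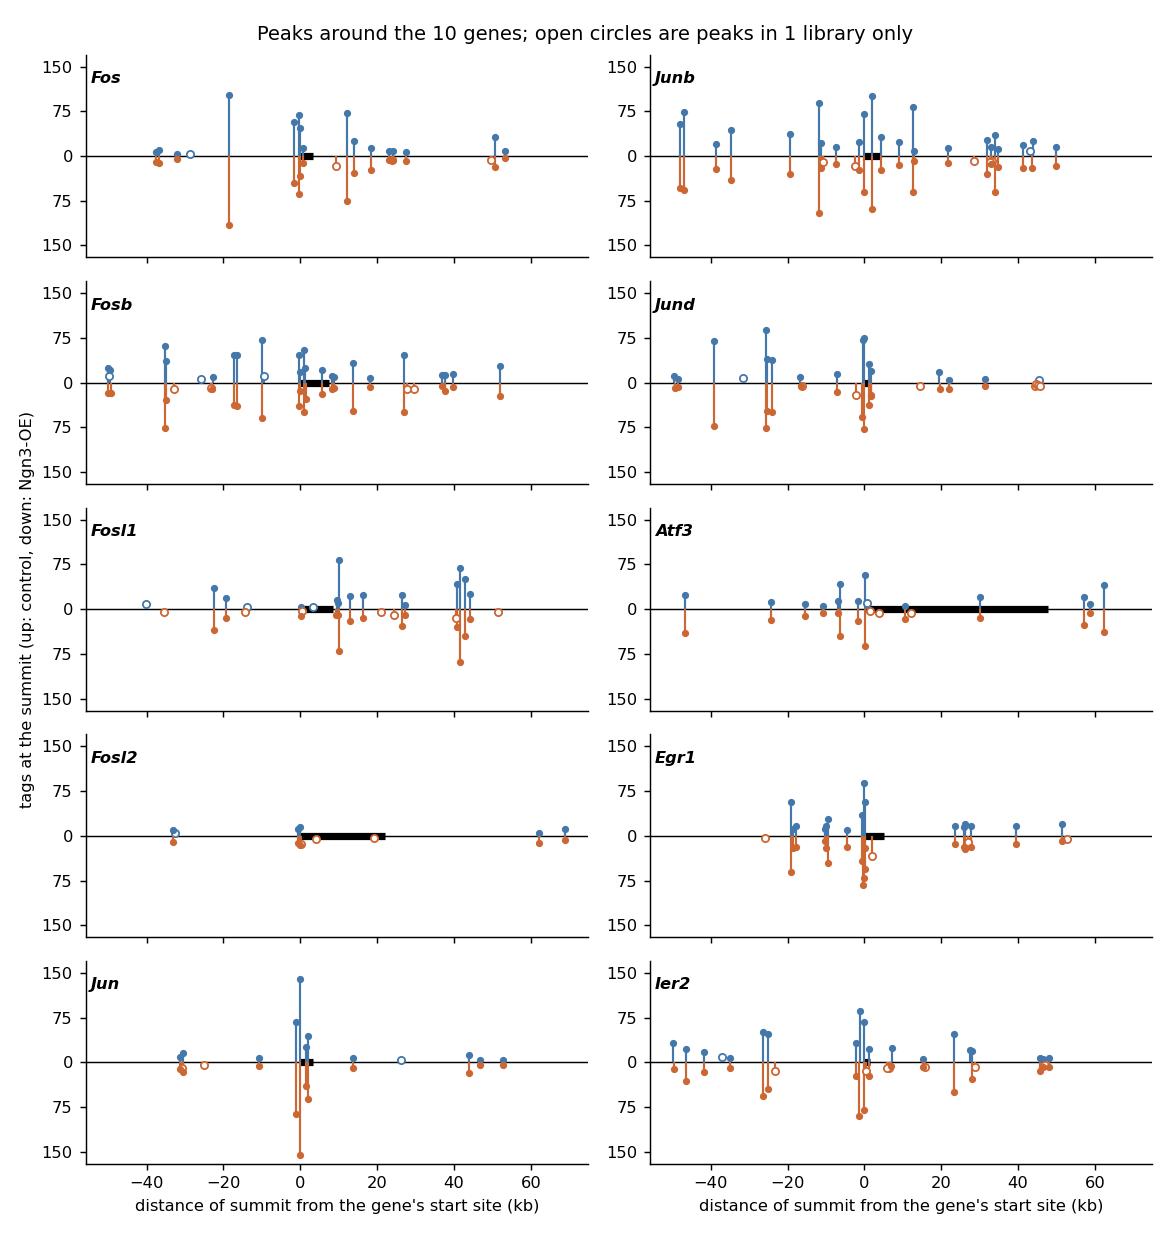
Peaks of each gene's window by distance of the summit from the start site (kb) and by height (tags at the summit), with control upward and Ngn3-OE downward. Filled circles are peaks found in both libraries, open circles peaks in 1 library only, and the thick bar is the gene. The tall peaks stand at the same distances in both libraries.

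Peaks found in both libraries were the rule in these windows. Of the control peaks 91.6% (86.4 to 94.9, Wilson) were overlapped by an Ngn3-OE peak, and of the Ngn3-OE peaks 77.5% (71.2 to 82.7) by a control peak. The 14 control-only peaks were 8.38% of the control members (5.06 to 13.6), against 21.7% of all control peaks. The 45 Ngn3-OE-only peaks were 22.5% of the Ngn3-OE members (17.3 to 28.8), close to the 26.6% of all Ngn3-OE peaks. Among peaks with a −log10 q of 5 or more, 4 of 135 control members (2.96%) were control-only against 7.89% of such control peaks, and 14 of 147 Ngn3-OE members (9.52%) were Ngn3-OE-only against 10.3%. The member peaks were also taller than the whole lists, with medians of 18 tags in control and 16 in Ngn3-OE, and 42.5% of them in each library were at a promoter of some gene, against 23.7% and 23.1% of the lists. In the whole control list, promoter peaks were control-only in 11.4% of cases and other peaks in 24.9%. Among the members these shares were 4.23% and 11.5%. In Ngn3-OE the shares were 15.3% and 30% in the whole list and 15.3% and 27.8% among the members, so the members lay below the list on the control side and near it on the Ngn3-OE side. How much of the difference from the whole list goes with height was not tested.

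By place, 1 of the 19 control peaks at the genes' own promoters was control-only, a 10-tag peak of Atf3, and 3 of the 23 Ngn3-OE peaks there were Ngn3-OE-only, at Fosl2, Ier2 and Fosl1. At the promoters of other genes 2 of 52 control and 10 of 62 Ngn3-OE peaks were in 1 library only, and within the 10 genes 1 of 10 and 6 of 15, against 24.5% of control and 30.7% of Ngn3-OE peaks that lay inside any gene away from promoters. Away from all promoters and outside the genes the counts were 10 of 86 and 26 of 100, against the 24.9% and 30% of all peaks away from promoters. Ngn3-OE-only peaks outnumbered control-only peaks at each of the 10 genes. The widest gaps were at Ier2 with 7 against 1 and at Jund with 7 against 2, and Egr1 had 4 against 0. The Ngn3-OE list was also the longer one over the whole genome.

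**Figure D3:**
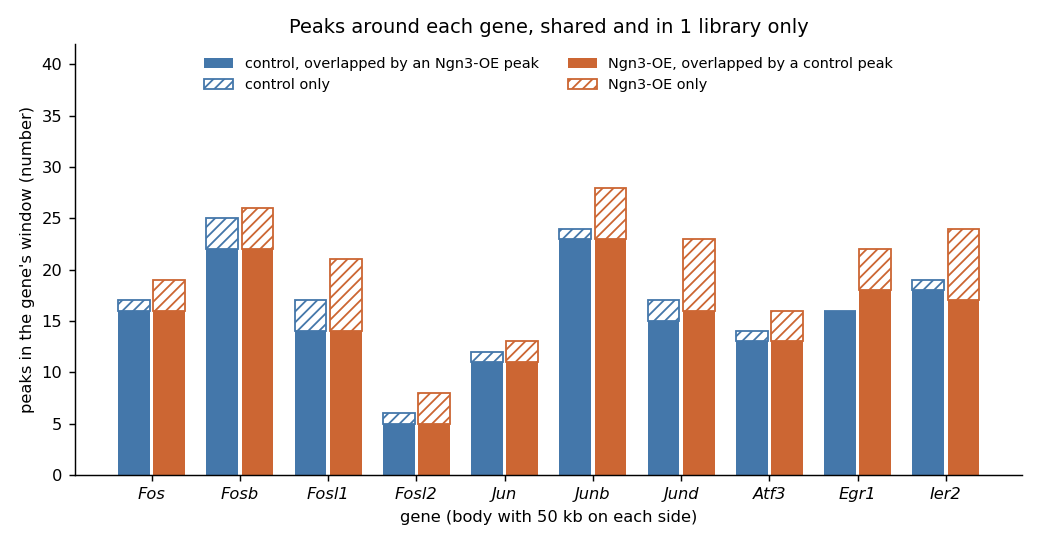
Number of control and Ngn3-OE peaks in the window of each gene, with filled bars for peaks overlapped by a peak of the other library and hatched bars for peaks in 1 library only. The hatched part is taller for Ngn3-OE at every gene, and Egr1 has 0 control-only peaks.

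Most one-library peaks were small. The median height was 7 tags in both sets, and 6 of the 14 control-only and 17 of the 45 Ngn3-OE-only peaks had 5 tags or fewer. A peak of the other library lay within 1 kb of 7 of the 14 and 23 of the 45. The lists hold only sites that passed the peak caller, so the tags at an unlisted site are unknown and no fold can be given. The strongest control-only peaks lay at −40.2 kb from Fosl1 at the promoter of 4930481A15Rik (chr19:5407333-5407439, 9 tags), at −31.5 kb from Jund (chr8:70667312-70667469, 8 tags) and at −37.1 kb from Ier2 in an intron of Nfix (chr8:84699888-84699962, 9 tags).

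The strongest Ngn3-OE-only peak lay in the last coding exon of Egr1, 1.87 kb past the start (chr18:34863032-34863188). It had 34 tags over a local background of 5.19 tags and a −log10 q of 14.4, and was the only one-library peak of the windows above 20 tags. The next lay in an untranslated exon of Fosl2, 0.21 kb past the start (chr5:32135965-32136050), with 13 tags, only 33 bp from a control peak. The third lay at the promoter of Gm44698, at −23.2 kb from Fosb (chr7:19333216-19333290), with 9 tags and a control peak 131 bp away.

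The shared peaks gave a ratio of heights for 153 pairs. Their median log2 ratio of Ngn3-OE over control was 0.06, with quartiles of −0.26 and 0.29, against 0.09 over all 91741 shared peaks, with quartiles of −0.26 and 0.46. The sign of the members' median turned with a flank of 10 kb, to −0.026. At a −log10 q of 5 or more in control the members' median was also −0.026, where that of all shared peaks was 0. A limit on the control peak alone lowers ratios by construction. Of the members 72.5% lay within 0.5 of 0 on the log2 scale, against 62.4% of all shared peaks. Member peaks, shared or not, were also taller (medians of 18 tags in control and 16 in Ngn3-OE, against 9 over each whole list), and the part of height in this narrower spread was not tested. Gene medians ran from −0.18 at Fosl1 and Fosb to 0.43 at Atf3, all inside the quartiles of all shared peaks. Those quartiles describe single peaks, so medians of several peaks inside them do not show likeness to the list. Own promoters had a median of −0.06, peaks at the promoters of other genes −0.03, peaks in the gene bodies 0.47 over 9 pairs, and peaks elsewhere 0.09.

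**Figure D4:**
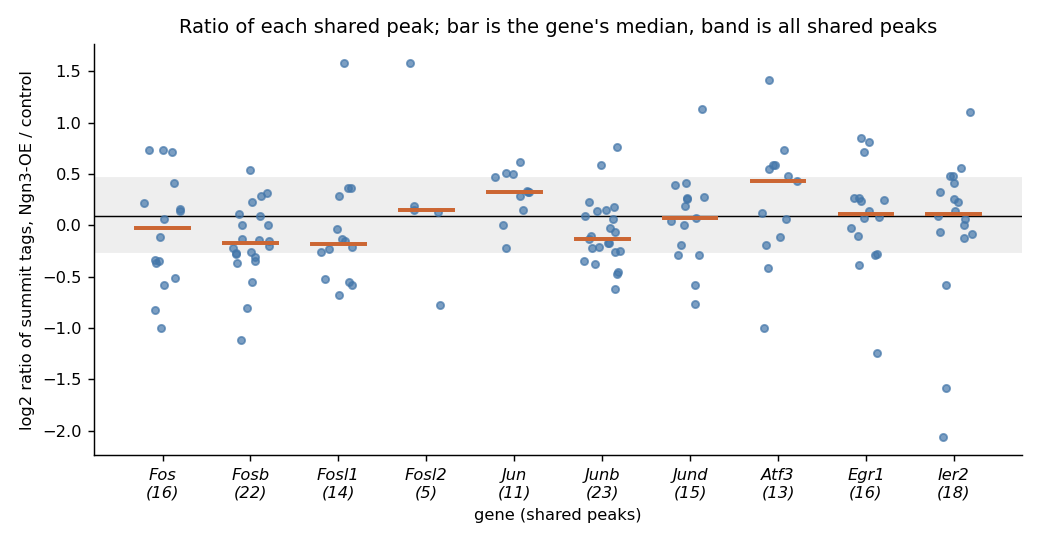
Log2 ratio of summit tags, Ngn3-OE over control, for each shared peak by gene, with the number of shared peaks in brackets. The bar is the gene's median and the grey band and line are the quartiles and the median of all 91741 shared peaks, taken singly. Every bar, a median of several peaks, lies inside the band, from −0.18 to 0.43.

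At a 2-fold threshold 5 of the 153 shared peaks were higher in Ngn3-OE (3.27%), against 7.3% of all shared peaks, and 6 were lower (3.92%), against 5.37%. At a −log10 q of 5 or more in control 1 was higher and 5 were lower, where 3.68% and 6.87% of all shared peaks were. That limit was set on the control peak alone. By construction it drops peaks that are weak in control, so this balance cannot tell whether the members leaned lower. With fold enrichment in place of tags 4 were higher and 3 lower, where 3.73% and 2.32% of all shared peaks were. The 5 higher peaks were the Fosl1 promoter with 4 and 12 tags, an intergenic site at 62.1 kb from Fosl2 with 4 and 12, the intron of Atf3 at 10.7 kb with 6 and 16, an intron of Gm3336 at 22.0 kb from Jund with 5 and 11, and the Cacna1a intron with the E-box at 45.6 kb from Ier2 with 7 and 15. All were weak in control, and the counting interval of each included 0.

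The lower peaks included taller ones. The intergenic site at 7.10 kb from Ier2 (chr8:84655668-84655913) had 25 tags in control and 6 in Ngn3-OE, a log2 ratio of −2.06 (−3.63 to −0.74), with summits more than 100 bp apart. Ngn3-OE-only peaks with 10 and 9 tags lay 335 and 975 bp from this control peak. The Nfix intron with the SOX site at −49.8 kb from Ier2 (chr8:84712456-84712723) had 33 and 11 tags, a log2 ratio of −1.58 (−2.72 to −0.56). In the same window the Ier2 promoter was at 67 and 80 tags. A site in an intron of Etf1, 51.4 kb from Egr1 (chr18:34912532-34912757), had 19 and 8 tags, a log2 ratio of −1.25 (−2.65 to 0.01). The promoter regions of Vasp near Fosb, with 13 and 6 tags, and of D730003I15Rik near Atf3, with 14 and 7, had intervals that included 0. The sixth, an intergenic site at 53.3 kb from Fos with 8 and 4 tags, had under 10 tags in both libraries and held an AP-1 site.

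A stricter reading asked whether the counting interval of a ratio lay wholly above or below the median of all shared peaks. It lay above for 1 of the 153 pairs (0.654%), against 2.23% of all shared peaks, and below for 5 (3.27%), against 3.2%. The 1 above was an intergenic site near Rtbdn, 34.1 kb from Junb, with 36 tags in control and 61 in Ngn3-OE. The 5 below were the Ier2, Nfix and Etf1 sites, a site at 50.7 kb from Fos with a SOX motif and 32 and 18 tags, and the Rnaseh2a promoter at 12.5 kb from Junb with 82 and 60 tags. The Rtbdn, Rnaseh2a and Fos sites were named after their values were seen.

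**Figure D5:**
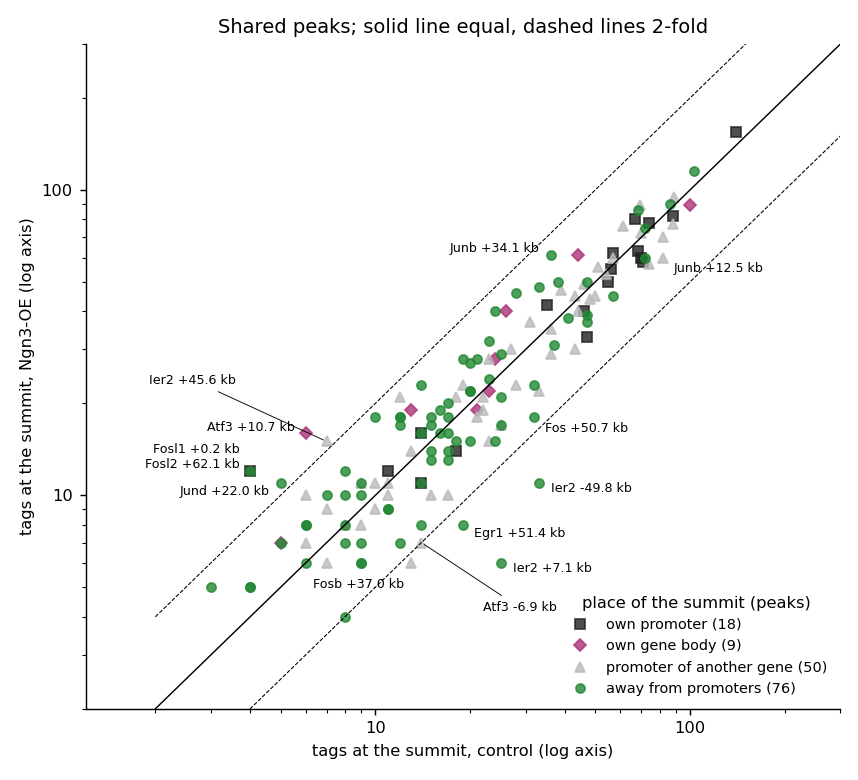
Tags at the summit in control (horizontal, log axis) and Ngn3-OE (vertical, log axis) for the 153 shared peaks, by place of the summit. The solid line is equality and the dashed lines are 2-fold; labelled peaks lie past 2-fold with 10 tags or more in the higher library, or have a counting interval apart from the median, and own promoters lie within the 2-fold lines apart from Fosl1.

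Motifs were searched on both strands within 100 bp of each summit. The AP-1 site was searched as TGANTCA, which also takes in TGAATCA and TGATTCA, so that every share given for it is that of the wider pattern. It was found at 9 of 167 control member peaks, 5.39% (2.86 to 9.92, Wilson), against 5.92% of all control peaks. In Ngn3-OE it was found at 13 of 200, 6.50%, against 5.56%. The shares of the members and of the lists did not differ beyond counting error, and the control interval also holds the 3.12% of all promoter peaks. The 9 control sites included the Fosl2 promoter, a site in the Ier2 untranslated exon at 1.16 kb with 23 and 22 tags, the Fosb-window peak shown above and, near Atf3, the promoter region of D730003I15Rik with 43 and 45 tags.

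The CArG box was found at 6 of the 167 control members, 3.59% (1.66 to 7.62), against 0.912% of all control peaks, so that the counting interval lay above the level of the list. The 6 were 2 peaks of Fos, 1 each of Fosb, Junb and Egr1, and a promoter peak of the noncoding gene AC126029.2 near Cfl1 in the Fosl1 window. At the genes' own promoters it was found at 3 of 19 control peaks, against 0.616% of all promoter peaks. In the narrower RefSeq promoter windows (GRCm38.p6), a table that holds 7 of the 10 genes and lacks Fosl1, Egr1 and Ier2, 0 of the 7 held a CArG box or a CRE, against 1.63% and 1.79% of 32851 promoters. The boxes of Fos and Fosb lay further out, at −304 and −262 bp. None of the 6 was among the peaks that differed by 2-fold, and their tags in control and Ngn3-OE were 68 and 63, 72 and 75, 46 and 40, 100 and 89, 88 and 70 at the same boxes of Egr1, and 69 and 89. The CRE was found at 4 members (2.40%, 0.935 to 6.0) against 0.797% of all control peaks and 1.97% of promoter peaks. These included the promoters of Jund and Ier2. An absent match says only that these letters are not in the window searched.

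The E-box of the NGN3 motif was found at 3 control members (1.80%, 0.613 to 5.15, against 3.65% of all control peaks and 1.22% of promoter peaks). The SOX site, CCATTGT or CCTTTGT, was found at 7 (4.19%, 2.05 to 8.40, against 8.80% of all control peaks and 4.91% of promoter peaks). In Ngn3-OE the E-box was found at 3 of 200 members (1.5%, against 4.27%) and the SOX site at 14 (7.0%, against 7.41%). Over the whole genome the AP-1 site stood at 7.54% of control-only peaks and 5.91% of Ngn3-OE-only peaks, a difference of 1.62 percentage points (1.21 to 2.04, Newcombe), and at 5.48% of shared peaks. With 50 bp on each side of the summit the difference was 0.978 points. For scale, the same difference was 5.61 points for the SOX site and −2.52 for the E-box. Shared peaks with an AP-1 site had a median log2 ratio of 0 over 5023 peaks, against 0.09 for all shared peaks. Of these 7.96% were at least 2-fold higher in Ngn3-OE and 7.88% at least 2-fold lower, against 7.3% and 5.37% of all shared peaks. Shared peaks with a SOX site also had a median of 0, with 5.63% higher and 14.8% lower. Those with the E-box had a median of 0.26, with 12.2% higher and 2.23% lower.

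Related genes were described in the same way. Among 11 other AP-1 partners (Batf, Maf and Atf relatives), 8 had a promoter peak in each library, 11 of 122 control peaks (9.02%) were control-only and 37 of 144 Ngn3-OE peaks (25.7%) were Ngn3-OE-only, against 21.7% and 26.6% of all peaks. Their strongest control-only peaks were near Atf7 with 12 tags and Mafk with 15 and 7, and the strongest Ngn3-OE-only ones near Maff with 13 and Atf7 with 10. Of their 111 shared peaks 10 were at least 2-fold higher (9.01%, against 7.3% of all shared peaks) and 2 lower (1.80%, against 5.37%). All 19 other immediate early genes, such as Nr4a and Egr relatives, had a promoter peak in both libraries. Of their peaks 29 of 230 (12.6%) were control-only and 41 of 243 (16.9%) Ngn3-OE-only. The strongest of these were near Arc, Egr3 and Klf4 in control, with 6 to 12 tags, and near Egr2, Npas4 and Dusp1 in Ngn3-OE, with 9 to 12. Of 201 shared peaks 12 were at least 2-fold higher (5.97%) and 5 lower (2.49%).

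All 10 upstream regulators, which include Srf, its ternary complex partners of the Elk family, Creb1 and MAP kinases, also had a promoter peak in both libraries. Of their peaks 20 of 114 (17.5%) were control-only and 39 of 133 (29.3%) Ngn3-OE-only, both near the 21.7% and 26.6% of all peaks, and of 94 shared peaks 5 were at least 2-fold higher (5.32%) and 4 lower (4.26%). The strongest control-only peak of the 3 lists lay in the window of Elk3, with 19 tags and a −log10 q of 25.6. The next control-only peaks of these regulators were near Elk4 with 7 tags and Elk3 with 8, and the strongest Ngn3-OE-only peaks were near Creb1 with 25 tags, Mapk8 with 8 and Mapk3 with 17. The median log2 ratio was 0 for the AP-1 partners and for the other immediate early genes, and 0.04 for the regulators, against 0.09 for all shared peaks.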

How the data were processed

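ATAC-seq libraries of control and Ngn3-OE late RPCs, 1 per group, were analysed. Per the methods and the submitters' processing notes, reads were trimmed with Trimmomatic and aligned to mm10 with Bowtie2. The authors then removed duplicates, mitochondrial reads and blacklisted regions, kept short fragments, shifted reads for the Tn5 cut with deepTools and called peaks with MACS2 at q < 0.05, in each library separately. The deposited peak lists held a display score, the fold enrichment over local background as a ratio, and −log10 p and −log10 q values. They were not scaled between libraries. The score was not used further.

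Lines with the same interval on chromosomes 1 to 19, X and Y were merged. Summit tags were solved from the fold enrichment and −log10 p as the whole number that satisfied both, which was tested on simulated data. For 3 control member peaks a second whole number came within a residual of 0.002. Peaks overlapping by 1 bp or more were paired, taking the partner with the highest −log10 q. Ratios carry exact 95% Clopper-Pearson counting intervals, and tags exact Poisson ones. GENCODE M21 basic transcripts gave start sites and exons, and an intron is any part of an annotated gene outside these exons. Python 3.11.15, numpy 2.4.6, pandas 2.3.3 and scipy 1.17.1 were used. The genes, lists and tests were chosen with earlier results of these data known. Named peaks were the highest −log10 q promoter peak and peak away from promoters of each gene, the 3 strongest one-library peaks of each kind, and shared peaks 2-fold apart with 10 tags or more. Related genes were named only for the 3 strongest one-library peaks of their list, of which 1 is not reported here. Alternatives were a narrower flank, a stricter q, other overlaps, unmerged lines, fold enrichment for tags, other fold and tag limits, another motif window, and pairs taken from the Ngn3-OE list, which was added after seeing the data.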

Additional observations from a re-analysis of the deposited data

How the results depend on the processing

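No paired analysis was possible because each group had 1 library, and for the same reason no library could be left out. Of the recomputed values 33 were counted as close to the reported ones, 18 as moved, and 2 changed sign. Close did not mean equal. With summits within 100 bp control-only peaks went from 14 to 20 and the median log2 ratio from 0.059 to 0. With an overlap of 50% of both peaks Ngn3-OE-only peaks went from 45 to 59. All of these were counted as close. With a flank of 10 kb the counts shrank with the windows, to 58 control peaks (3 in that library alone) and 72 Ngn3-OE peaks (14 alone). Over the whole lists 21.7% and 26.6% of peaks are in 1 library alone. Of the control peaks with a counterpart in these windows, 2 were 2-fold higher and 2 lower, where 7.3% and 5.37% of all shared peaks were. Their median log2 ratio was −0.026, which reverses the sign of the reported median of 0.059. At a −log10 q of 5 or more, 97.0% of control and 90.5% of Ngn3-OE members had a counterpart (92.1% and 89.7% of all peaks), and 4 and 14 were in 1 library only. For ratios this limit was set on the control peak alone. There 1 shared peak was 2-fold higher (3.68% of all such peaks), and the members' median was again −0.026. The median of all shared peaks fell from 0.09 to 0 at this setting. Keeping pairs by control height lowers ratios by construction, so no conclusion is drawn from this change of sign. Requiring an overlap of 50% of both peaks left 84.4% of control and 70.5% of Ngn3-OE members with a counterpart (68.0% and 63.8% of all peaks) and 26 control-only peaks. With fold enrichment in place of tags 3 peaks were 2-fold lower (2.32% of all shared peaks). A fold of 1.5 gave 17 higher and 16 lower of 153, against 20.5% and 13.2% of all shared peaks. With 50 bp on each side of the summit the AP-1 difference between control-only and Ngn3-OE-only peaks was 0.978 percentage points. The causes were not tested beyond the smaller windows and fewer peaks that these settings keep by construction. At 4 to 16 tags, as at the Fosl1 and Fosl2 promoters, counting error alone spans a 2-fold difference.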
